A study of Mus musculus with 6 samples.

Results

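The genes described here are 48 genes that mark T cells, B cells and natural killer (NK) cells, followed in choroid plexus epithelium of mice with and without a RAG gene. Members were the probe sets whose single gene symbol in the platform annotation was one of these 48 symbols. That gave 69 of 45037 probe sets other than controls, and 47 of the 18193 genes that have a probe set with a single symbol. They comprised 19 T cell genes with 33 probe sets, 17 B cell genes with 23 and 11 NK and cytotoxic genes with 13. Lck, the kinase that starts T cell receptor signalling, was not analysed here. On this platform a probe set is a group of short probes that together give 1 intensity for a transcript.

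T and B cells recognise antigen through receptors whose genes are cut and joined by RAG1 and RAG2, and a mouse that lacks either has no mature T or B cells. NK cells kill without a rearranged receptor and still develop in such mice, as do early B cell precursors, which already express Cd79a, Cd79b and Pax5. The choroid plexus, the secretory tissue of the brain ventricles, is a route by which T cells enter the cerebrospinal fluid.

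The 6 samples were total RNA of choroid plexus epithelium taken from whole brain, each hybridised to 1 array. By description 3 were B10.PL wild type and 3 were B10.PL with a RAG-/- genotype, and the labels state neither the disrupted RAG gene nor the age, sex or pooling of the mice. A code in the titles joins the arrays into 3 pairs, each holding 1 array of each genotype. For pair 1 the description states a reversal and gives both arrays the opposite genotype to their titles. The tests over all members and the class medians are therefore given by description and by title, and some single genes by description only. Arrays are named by description below. By title the RAG group is WT replicate 1 with RAG-/- replicates 2 and 3. Ttr, which marks this epithelium, ran from 22872 to 34232 in deposited intensity, and in all 6 arrays it was far above the control described next. Rag1 was at 74.0, 1.86 and 4.39 in WT replicates 1 to 3 and at 7.19, 116 and 62.1 in RAG-/- replicates 1 to 3. Rag2 was at 5.30, 9.35 and 126 in wild type and at 26.7, 16.03 and 46.6 in RAG-/-. The mean log2 difference, RAG-/- minus wild type, was 0.93 for Rag1 and 0.05 for Rag2 by description, and 2.22 and -0.68 by title. For Rag2 the exact two-sided permutation p was 1 by description and 0.6 by title. For Rag1 it was 0.3 by description and 0.1 by title, the smallest that 3 against 3 arrays allow. By title the arrays did not overlap for Rag1, and those titled RAG were higher. Its unadjusted p with limma was then 0.000135, and 0.000493 with the pair as a block. Neither passed an adjusted p of 0.05, and with the block the adjusted p was 0.935. Because the position of either probe set relative to the disruption is unknown, neither gene checks the labels. The 3' to 5' signal ratio of the Actb control probe sets was 26.2 and 24.1 in the arrays of pair 3 and between 2.99 and 4.52 in the others.

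Few lymphocyte genes stayed above the signal of a probe set with no target in all arrays. TrpnX, a bacterial transcript with 3 probe sets on the array, is taken here as not added to the samples, and the highest of its 3 signals served as the level to clear. In every array, 15 of 69 member probe sets (21.7%) cleared it, where 56.6% of all probe sets did. The level itself moved between arrays. It was 6.34, 8.71 and 34.7 in WT replicates 1 to 3 and 45.7, 9.61 and 9.18 in RAG-/- replicates 1 to 3, so each array sets its own bar.

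Member probe sets above the level numbered 54, 58 and 35 in WT replicates 1 to 3, against 90.4%, 88% and 71.2% of all probe sets. In RAG-/- replicates 1 to 3 they numbered 23, 59 and 53, against 61.2%, 89.7% and 87.2%. As a share of 69 these were 78.3%, 84.1%, 50.7%, 33.3%, 85.5% and 76.8%, below the share of all probe sets in each of the 6 arrays. The 2 arrays with the fewest members above the level, WT replicate 3 and RAG-/- replicate 1, were those with the brightest TrpnX, and the groups overlapped. With RAG-/- replicate 1 left out, 30 probe sets cleared it in every remaining array. Against 1 common level, the 45.7 of the brightest TrpnX signal, between 19 and 25 member probe sets were above in each array. Then 5 of 69 members (7.25%) cleared it in every array, where 49.3% of all probe sets did, and 23 of 69 (33.3%) were above it in no array, where 18.3% of all probe sets were. The median member lay between percentiles 24.3 and 30.5 of all probe sets.

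**Figure D1:**
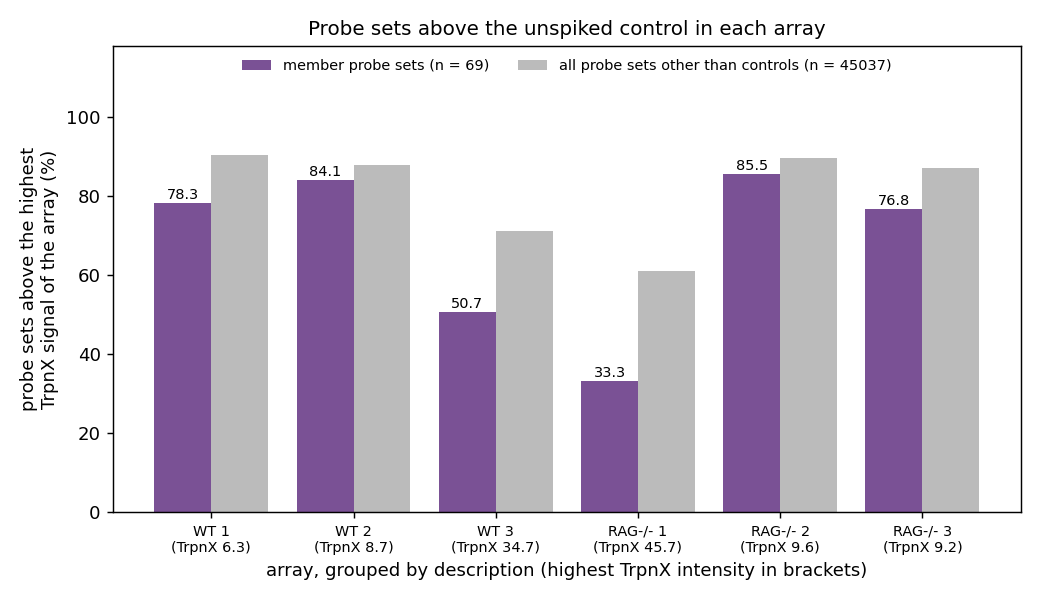
Share of probe sets, in percent, above the highest TrpnX signal of the same array, for the 69 member probe sets and for all 45037 probe sets other than controls, with that TrpnX intensity under each array. The member bar is the lower one in each of the 6 arrays, and both bars are lowest in RAG-/- replicate 1, where TrpnX was at 45.7.

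T cell genes had the smallest share above TrpnX in every array, 3 of 33 probe sets, against 9 of 23 for B cell genes and 3 of 13 for NK and cytotoxic genes. These shares were 9.09%, 39.1% and 23.1%, where 56.6% of all probe sets were above. Against the common level they were 6.06%, 4.35% and 15.4%, where 49.3% of all probe sets were above, so B cell genes were then lowest. The chains of the CD3 complex, which carry the T cell receptor signal into the cell, stayed low. Cd3e was at 16.1, 24.1 and 23.1 in WT replicates 1 to 3 and at 27.0, 55.5 and 8.0 in RAG-/- replicates 1 to 3. For Cd3d the values were 4.3, 3.1 and 3.8 in wild type and 7.5 and 9.8 in RAG-/- replicates 2 and 3, with 4.0 in replicate 1. Cd3g lay at 5.7, 7.8 and 6.4 in wild type and at 20.4, 19.5 and 5.9 in RAG-/-. Cd3d and Cd3g each exceeded TrpnX in 1 array, RAG-/- replicates 3 and 2 respectively, and Cd3e did so in 2 wild type arrays and 1 RAG-/- array. The strongest of 4 probe sets for Cd247, the zeta chain, was at 33.4, 40.3 and 41.6 in wild type and 43.7, 35.6 and 22.2 in RAG-/-, under the common level in all 6 arrays.

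The coreceptors that divide T cells into helper and killer cells gave a similar picture. Cd4 was at 32.7, 22.4 and 12.7 in wild type and at 5.6, 10.1 and 10.2 in RAG-/-, with every wild type array above every RAG-/- array but none above the common level. Its other probe set, at 12.2, 9.8 and 13.5 in wild type and 8.7, 14.1 and 12.7 in RAG-/-, overlapped. Cd8b1 was at 2.8, 29.96 and 6.8 in wild type and 3.8, 3.3 and 39.2 in RAG-/-, high in 1 array of each group. Cd8a cleared TrpnX in every array through 1 of its 5 probe sets, at 293, 275 and 194 in wild type and 287, 197 and 308 in RAG-/-. The name of that probe set, 1440164_x_at, carries the suffix for probes that can also match other sequences, and the remaining 4 Cd8a probe sets ran from 3.5 to 61.7. Between the groups the bright Cd8a probe set differed by 0.08 on the log2 scale (95% interval -0.73 to 0.88), and no other probe set of the gene was above TrpnX in every array. One of these, 1425335_at, was at 36.3, 41.7 and 61.7 in wild type and 19.2, 34.5 and 16.4 in RAG-/-. Every wild type array of it was above every RAG-/- array, with a difference of -0.66 (SE 0.34) and an adjusted p of 1 with limma, whereas by title the arrays overlapped and the difference was -0.31.

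Of the signalling proteins below the receptor, Zap70, a kinase that docks on the CD3 chains, cleared TrpnX in every array. Its strongest probe set was at 292, 406 and 1037 in wild type and 340, 628 and 773 in RAG-/-, while another one, 1422701_at, did not pass 51.5. Values ran lowest in pair 1 and overlapped between groups. Lat, the adaptor that Zap70 phosphorylates, was at 12.2, 96.9 and 90.5 in wild type and 62.6, 21.9 and 16.9 in RAG-/-. That order follows the titles, with the 3 arrays titled RAG at the bottom. Among the costimulatory receptors, Cd28 was at 38.1, 8.2 and 27.2 in wild type and 40.5, 47.6 and 52.2 in RAG-/-. Icos, a relative of Cd28, was at 27.0, 3.7 and 32.0 in wild type and 31.1, 63.5 and 63.1 in RAG-/-. As deposited, every RAG-/- array of Cd28 was above every wild type array, and all but replicate 1 were for Icos. With groups by title, both genes overlapped. The other 8 T cell genes ran from 1.08 to 88.1 at their strongest probe set. Sh2d1a, an adaptor of T and NK cell receptors, never exceeded TrpnX, and Cd6, an adhesion receptor, did so in 1 array.

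B cell genes were above TrpnX in every array for 9 of 17 genes, namely Cd79a, Cd22, Pax5, Bank1, Fcer2a, Tnfrsf13c, Spib, Blnk and Cd72, but only Bank1 also cleared the common level throughout. Cd79a, which with Cd79b couples the B cell receptor to its kinases, was at 27.2, 22.8 and 46.6 in wild type and 50.9, 38.3 and 53.2 in RAG-/-. It cleared the TrpnX signal of each array but was under the common level in WT replicates 1 and 2 and RAG-/- replicate 2. Cd79b was at 34.9, 26.4 and 43.6 in wild type and 56.3, 15.6 and 6.2 in RAG-/-, with its highest and lowest values both in RAG-/-. Bank1, a scaffold of B cell receptor signalling, was at 164, 58.2 and 152 in wild type and 149.5, 128 and 111 in RAG-/-. Blnk, an adaptor of the same pathway that macrophages also express, was at 102, 62.5 and 98.4 in wild type and 94.9, 25.6 and 58.7 in RAG-/-. Both were lowest in an array of pair 2.

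Most surface proteins of B cells overlapped between the groups by description. Ms4a1, which encodes CD20, was at 17.6, 58.3 and 66.2 in wild type and 92.9, 40.7 and 3.3 in RAG-/-. Cd22, an inhibitory receptor, was at 70.5, 28.4 and 70.8 in wild type and 70.5, 89.9 and 60.4 in RAG-/-. Fcer2a, the low-affinity IgE receptor CD23 of mature B cells, was at 15.4, 47.3 and 68.0 in wild type and 53.1, 43.1 and 53.2 in RAG-/-. In each of these 3 genes the arrays of the groups overlapped. Tnfrsf13c, the receptor for the survival factor BAFF, was at 14.4, 73.0 and 44.4 in wild type and 52.0, 34.0 and 24.1 in RAG-/-. Cxcr5, which guides B cells into follicles, was at 32.1, 51.5 and 35.7 in wild type and 21.9, 23.3 and 32.3 in RAG-/-. Cd72, a receptor also found on macrophages, was at 77.2, 45.6 and 113 in wild type and 158, 88.8 and 75.6 in RAG-/-. As deposited, 1 RAG-/- array of Cxcr5 lay just inside the wild type range, and after quantile normalization every wild type array was above every RAG-/- array.

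Among the B cell transcription factors, Pax5, which fixes B cell identity, was at 35.9, 66.0 and 110 in wild type and 61.7, 71.1 and 81.3 in RAG-/-. Spib was at 56.7, 68.0 and 59.9 in wild type and 77.4, 33.2 and 38.8 in RAG-/-, highest and lowest in RAG-/-. Blk, a kinase of the B cell receptor, was at 82.3, 84.7 and 16.8 in wild type and 38.6, 54.4 and 4.4 in RAG-/-. It was lower in RAG-/- by description in all 3 pairs, with differences of -0.74, -0.62 and -0.64, although the groups overlapped. At the strongest probe set Cd4, Cxcr5 and Gzmb were also lower in all 3 pairs. Cd28, Icos, Ctla4, Cd79a, Fcrla and Xcl1 were higher in all 3. The share of all genes with the same sign in all 3 pairs is not given here. The Blk difference of -0.67 had an SE of 0.61 without the pair as a block and 0.34 with it (unadjusted p 0.0929 and adjusted p 1 with limma). By title pair 1 changes sign, and the difference of Blk was -0.18 (SE 0.65). The remaining B cell genes, Fcrla, Vpreb3, Pou2af1 and Cr2, ran from 10.9 to 130 at their strongest probe set. Vpreb3, which pairs with receptor chains in B cell precursors, held that highest value in RAG-/- replicate 3.

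NK cells do not need RAG, but not every gene of the NK and cytotoxic class is particular to them. The genes of this class were no clearer. Ncr1, an activating receptor that defines NK cells, was at 15.3, 16.3 and 6.1 in wild type and 4.9, 23.8 and 3.9 in RAG-/-, under the common level in all arrays. Klrd1, the CD94 chain of NK receptors, was at 245, 33.2 and 72.9 in wild type and 77.7, 19.4 and 78.0 in RAG-/-. WT replicate 1 stood above the rest for Klrd1. That array also had the highest sums over 10 pan-leukocyte and 8 neutrophil genes, 5923 and 25168, where the others reached 4915 and 8716, and the part of these cells in the Klrd1 value was not tested.

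The granule proteins with which killer cells lyse their targets overlapped between the groups by description. Gzma, a granzyme, was at 109, 61.1 and 71.5 in wild type and 44.1, 86.6 and 56.8 in RAG-/-. Gzmb was at 48.003, 25.8 and 111 in wild type and 32.7, 27.8 and 16.4 in RAG-/-. Prf1, the pore-forming perforin, was at 87.8, 72.8 and 158 in wild type and 53.4, 104 and 60.3 in RAG-/-, and alone of these 4 genes cleared TrpnX in every array. Nkg7, a granule membrane protein, was at 28.2, 10.97 and 116 in wild type and 13.0, 61.1 and 12.9 in RAG-/-. At the strongest probe set, WT replicate 3 held the highest value of Gzmb, Prf1 and Nkg7. The second Prf1 probe set was at 79.4, 27.1 and 60.4 in wild type and 40.3, 71.1 and 78.5 in RAG-/-, highest in WT replicate 1. Its log2 difference was 0.22 by description, against -0.43 for the strongest. By title it was 0.65, without overlap, against -0.13. The chemokine Xcl1 was at 15.2, 9.97 and 26.6 in wild type and 24.3, 61.1 and 43.1 in RAG-/-. Klrk1, Klre1 and Ctsw ran from 10.5 to 116.

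Eomes, a transcription factor of NK cells that is also expressed in developing and some adult neurons, varied most within groups. It was at 61.7, 651 and 96.2 in wild type and 479, 364 and 48.9 in RAG-/-. Its second probe set had the same 3 arrays high, at 134, 143 and 108 against 4.3, 4.4 and 17.3. These arrays were WT replicate 2 and RAG-/- replicates 1 and 2, so the split followed neither reading of the labels. The summed level of 6 neuron genes was 35609, 23852 and 55936 in them and 22766, 12727 and 7685 in the others, and no neuron gene was at 0. Whether neuronal RNA has a part in the Eomes values was not tested.

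**Figure D2:**
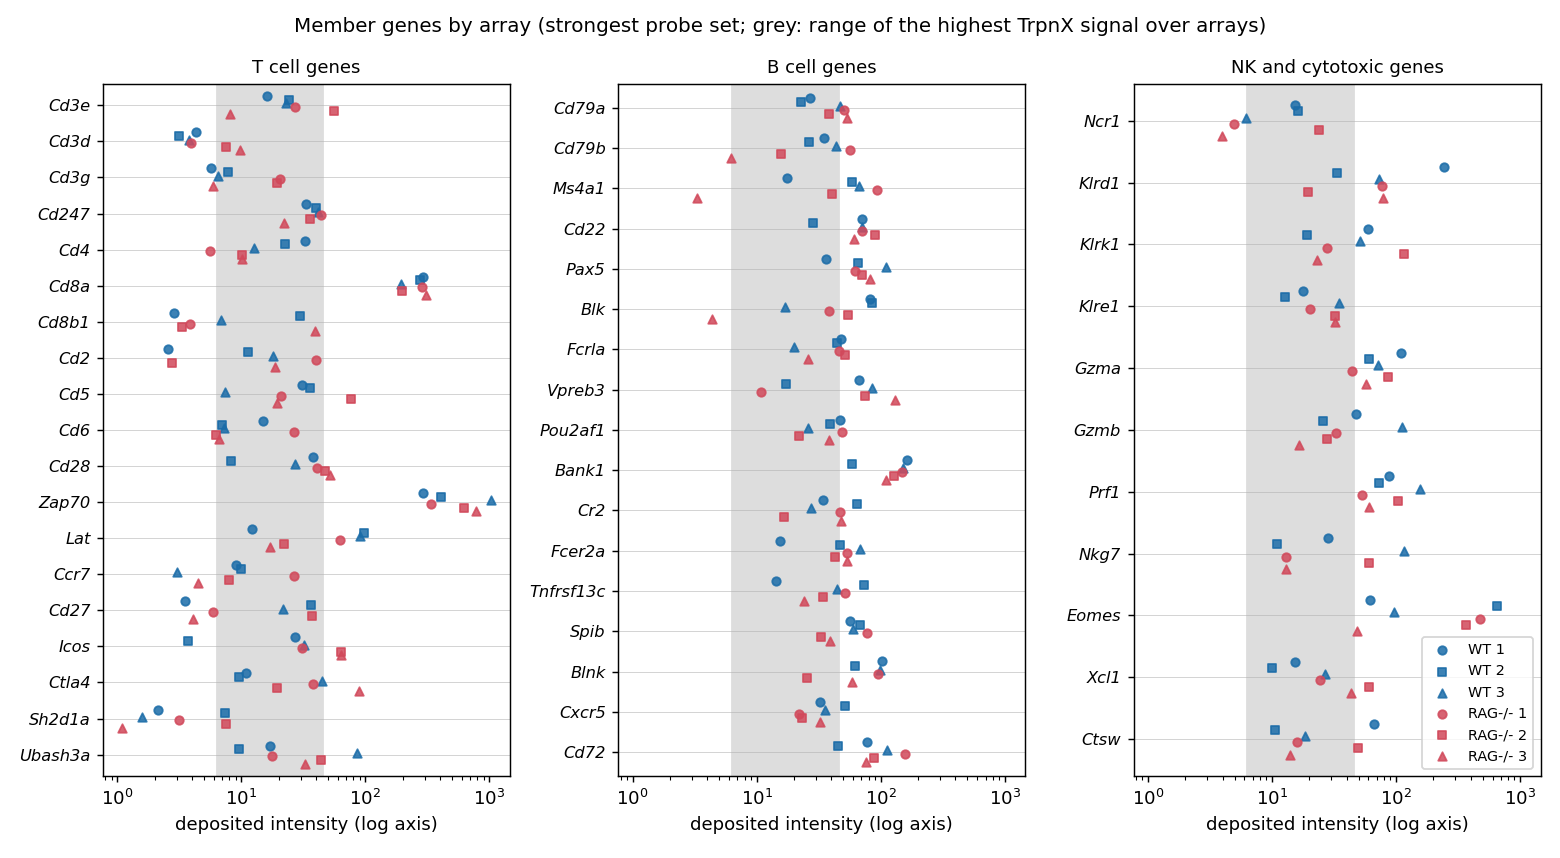
Deposited intensity (log axis) of the strongest probe set of each of the 47 member genes in the 6 arrays, blue for wild type and red for RAG-/- by description, with circle, square and triangle for pairs 1, 2 and 3. The grey band spans the highest TrpnX signals of the arrays, 6.34 to 45.7. Most points of the T cell genes lie in or below the band, and Zap70, Cd8a, Bank1, Prf1 and Eomes lie above it in all 6 arrays.

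To compare the genotypes, values were taken as quantile normalized log2(intensity + 16), which understates changes of dim genes, and all probe sets were kept. By description, 0 of 69 member probe sets passed an adjusted p of 0.05 with limma, and 0 of 69 had an unadjusted p under 0.05. Over all probe sets 0% passed and 2.24% had an unadjusted p under 0.05. With the pair as a block the members again gave 0 and 0, where the shares over all probe sets were 0% and 3.25%. Differences of the 47 genes lay between -0.76 (Gzmb) and 0.96 (Icos), with a median SE of 0.44. The 95% intervals of single genes reached down to -2.15 (Klrd1) and up to 2.46 (Eomes), so several-fold changes of some members were not detectable with 3 arrays a group. For Cd3e the interval was -0.73 to 1.13 and for Cd79a -0.42 to 1.30.

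By class, no group of members was lower in the RAG-/- arrays by more than the spread between arrays. T cell genes averaged 5.39 ± 0.13 (SD, n = 3) in the wild type arrays and 5.55 ± 0.09 (SD, n = 3) in the others, with a median difference of 0.14 and 14 of 19 genes higher. B cell genes averaged 6.03 ± 0.09 and 5.99 ± 0.32 (SD, n = 3), with a median difference of -0.02 and 9 of 17 lower. NK and cytotoxic genes averaged 5.97 ± 0.28 and 5.86 ± 0.30 (SD, n = 3), with a median difference of -0.17 and 7 of 11 lower. The median over all 18193 genes was -0.0016. In all, 21 of 47 members (44.7%) were lower, where 50.2% of all genes were. The classes did not hold a direction over the pairs. In pairs 1, 2 and 3 the median difference was 0.22, -0.09 and -0.01 for T cell genes, 0.40, -0.49 and -0.31 for B cell genes, and -0.56, 0.36 and -0.19 for NK and cytotoxic genes. By title the medians of pair 1 change sign. In bulk RNA, fewer cells of a type and less RNA per cell cannot be told apart.

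The arrays of the groups did not overlap for 5 of 47 genes by description. The 3 higher ones were Icos, Cd28 and Xcl1 (6.38%, where 2.65% of all genes were higher without overlap), and the 2 lower ones were Cd4 and Cxcr5 (4.26%, where 1.93% were). Icos differed by 0.96 (95% interval -0.04 to 1.96) and Xcl1 by 0.81 (-0.00013 to 1.62), and Cd28 differed by 0.70. Other probe sets of Icos differed by -0.04 and 0.60 and that of Cd28 by 0.26, all with overlap. Cd4 differed by -0.64 (95% interval -1.35 to 0.06) and Cxcr5 by -0.39. For each of these genes the exact permutation p was 0.1, two-sided, the smallest that 3 against 3 arrays allow, and the adjusted p with limma was 1. With the values as deposited only Cd28 and Cd4 were without overlap, and none of the 5 was among the 13 members left when the lowest 40% of probe sets were dropped.

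By title, more members were lower in the RAG group than by description, and again none passed. With limma 0 of 69 member probe sets passed (0% of all probe sets), and with the pair as a block 0 of 69 (0.00222%, which is 1 probe set and no member). An unadjusted p under 0.05 was reached by 3 of 69 member probe sets, those of Lat, Ms4a1 and Tnfrsf13c, where 2.56% of all probe sets reached it. With the block 6 of 69 member probe sets reached it, where 4.37% of all probe sets did. The 3 added with the block, named after their values were seen, were Fcrla, Vpreb3 and Eomes. Vpreb3 was higher (1.18) and Eomes lower (-1.41). The Fcrla probe set was lower (-0.82) but was not the strongest of the gene, whose others were higher, by 0.10 and 0.18. The smallest adjusted p of a member was 1 without the block and 0.935 with it.

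B cell genes averaged 6.14 ± 0.21 in the arrays titled B10 and 5.88 ± 0.13 in those titled RAG (SD, n = 3). Of these genes 13 of 17 were lower in the arrays titled RAG, with a median of -0.22, and the medians were -0.40, -0.49 and -0.31 in pairs 1, 2 and 3. Among T cell genes 12 of 19 were lower and the median was -0.04, and among NK and cytotoxic genes 7 of 11 were higher and the median was 0.20. The median over all genes was -0.019. Together 29 of 47 members (61.7%) were lower by title, where 52.7% of all genes were. Without the lowest 40% of probe sets the B cell median, then over 7 genes, was again -0.22. Several lists of marker genes of other cells also leaned to higher or lower by title, with 0 genes called. All 7 fibroblast genes were lower (median -0.43), as were 7 of 8 epithelium genes (-0.30) and 6 of 7 endothelial genes (-0.14), and all 5 oligodendrocyte genes were higher (1.31). Plasma cell genes were lower for 5 of 6 (-0.27) and pan-leukocyte genes for 8 of 10 (-0.09). Jchain was lower without overlap, where 3.17% of all genes were. Neutrophil genes were higher for 7 of 8 (0.35) and astrocyte genes for 4 of 5 (0.56). Neuron genes were split, 3 higher and 3 lower. Summed fibroblast levels were 14708, 20818 and 23035 in the arrays titled B10 and 31391, 6948 and 14012 in those titled RAG, so the groups overlapped. Summed oligodendrocyte levels were 26379, 25319 and 28251 in the arrays titled B10 and 29952, 38941 and 53208 in those titled RAG, without overlap. Such lists leaned by description too, again with 0 genes called. All 7 fibroblast genes were lower (median -1.08), 5 of them without overlap, where 1.93% of all genes were lower without overlap. The summed fibroblast levels did not overlap by description, whereas the summed oligodendrocyte levels did. All 8 epithelium genes (-0.14) and all 7 endothelial genes (-0.35) were lower by description, and all 5 oligodendrocyte genes were higher (1.08). All 8 neutrophil genes were lower by description (-0.71), with 4 of 6 plasma cell genes (-0.05) and 7 of 10 pan-leukocyte genes (-0.18). Astrocyte genes were higher for 4 of 5 (0.19). No gene of these lists was at 0, and their part in the B cell values was not tested.

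Without overlap by title, 4 of 47 members were lower (8.51%, where 3.17% of all genes were) and 1 was higher, Cd3d (2.13%, where 2.76% were). Lat differed by -1.63 (SE 0.34, 95% interval -2.41 to -0.86), from 62.6, 96.9 and 90.5 in the arrays titled B10 to 12.2, 21.9 and 16.9 in those titled RAG. Ms4a1 differed by -1.43 (SE 0.45, 95% interval -2.46 to -0.40), from 92.9, 58.3 and 66.2 to 17.6, 40.7 and 3.3. The second Ms4a1 probe set did not overlap either and went the same way, by -0.56. Tnfrsf13c differed by -0.92 (SE 0.36), from 52.0, 73.0 and 44.4 to 14.4, 34.0 and 24.1. Cd247 differed by -0.37 (SE 0.34), while its other probe sets were higher, by 0.81, 0.18 and 0.09. These genes were at or under the common level in 2 or more arrays, their adjusted p with limma was 1, and their exact permutation p was 0.1. By description the same genes overlapped, with differences of -0.56 for Lat, -0.23 for Ms4a1 and -0.05 for Tnfrsf13c, because the arrays of pair 1 change places. Eomes differed by -1.41 by title and 0.33 by description, and Vpreb3 by 1.18 and 0.13, with overlap in each case.

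**Figure D3:**
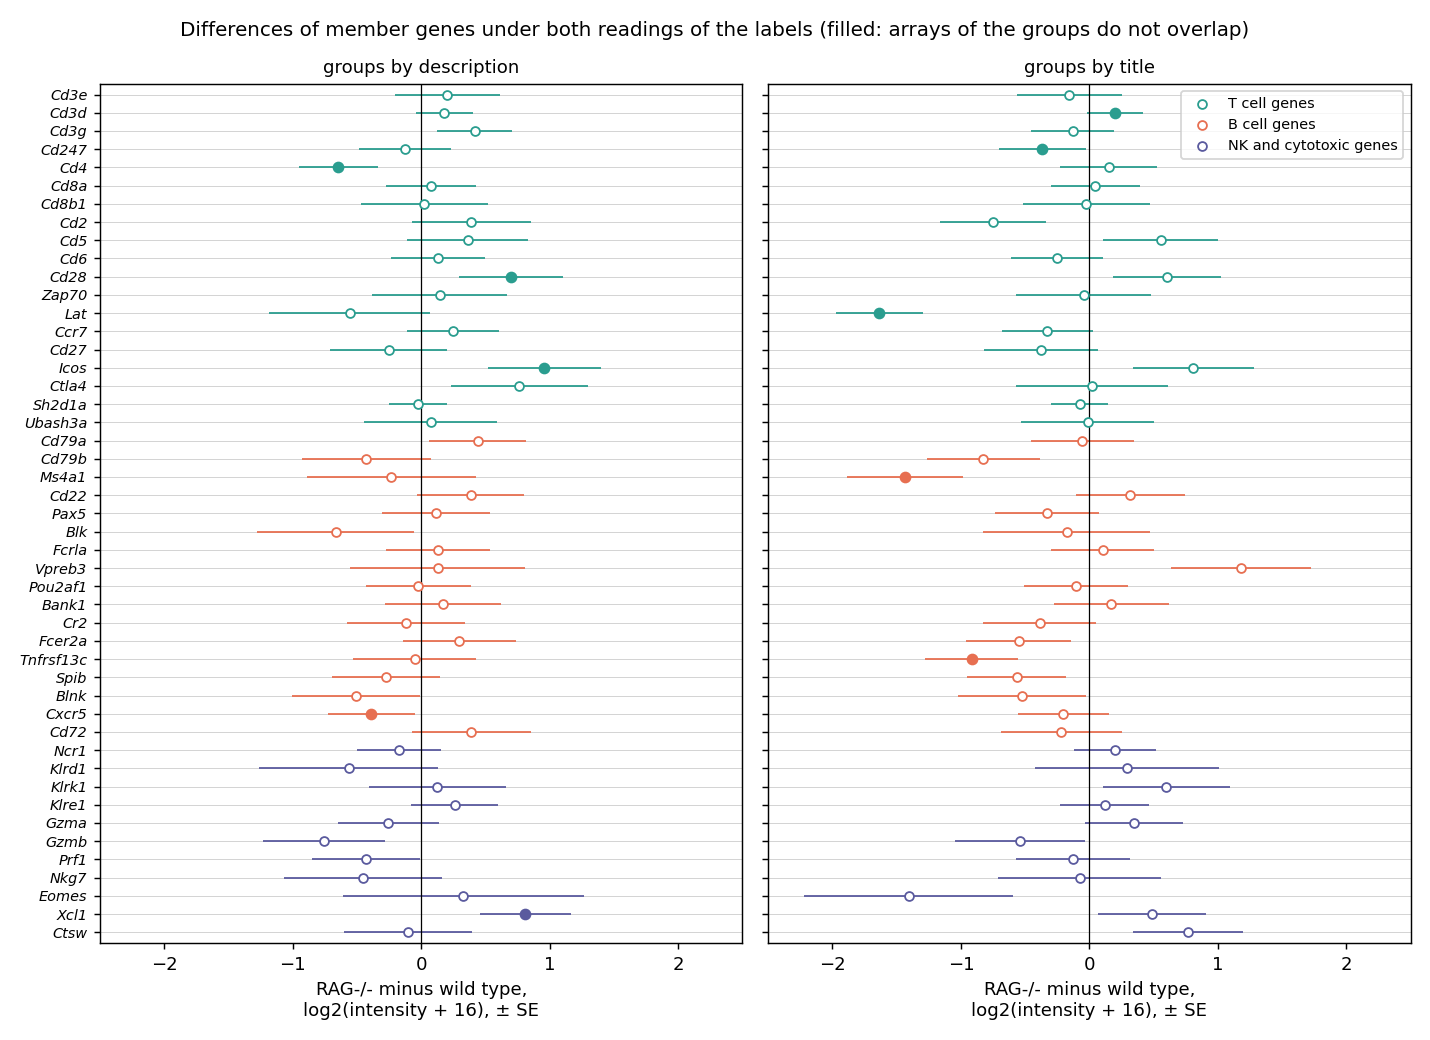
Difference of each of the 47 member genes, RAG-/- minus wild type on the log2(intensity + 16) scale, with its standard error, by description on the left and by title on the right. Filled points are genes whose arrays do not overlap, 5 in each panel, and no gene is filled in both panels.

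**Figure D4:**
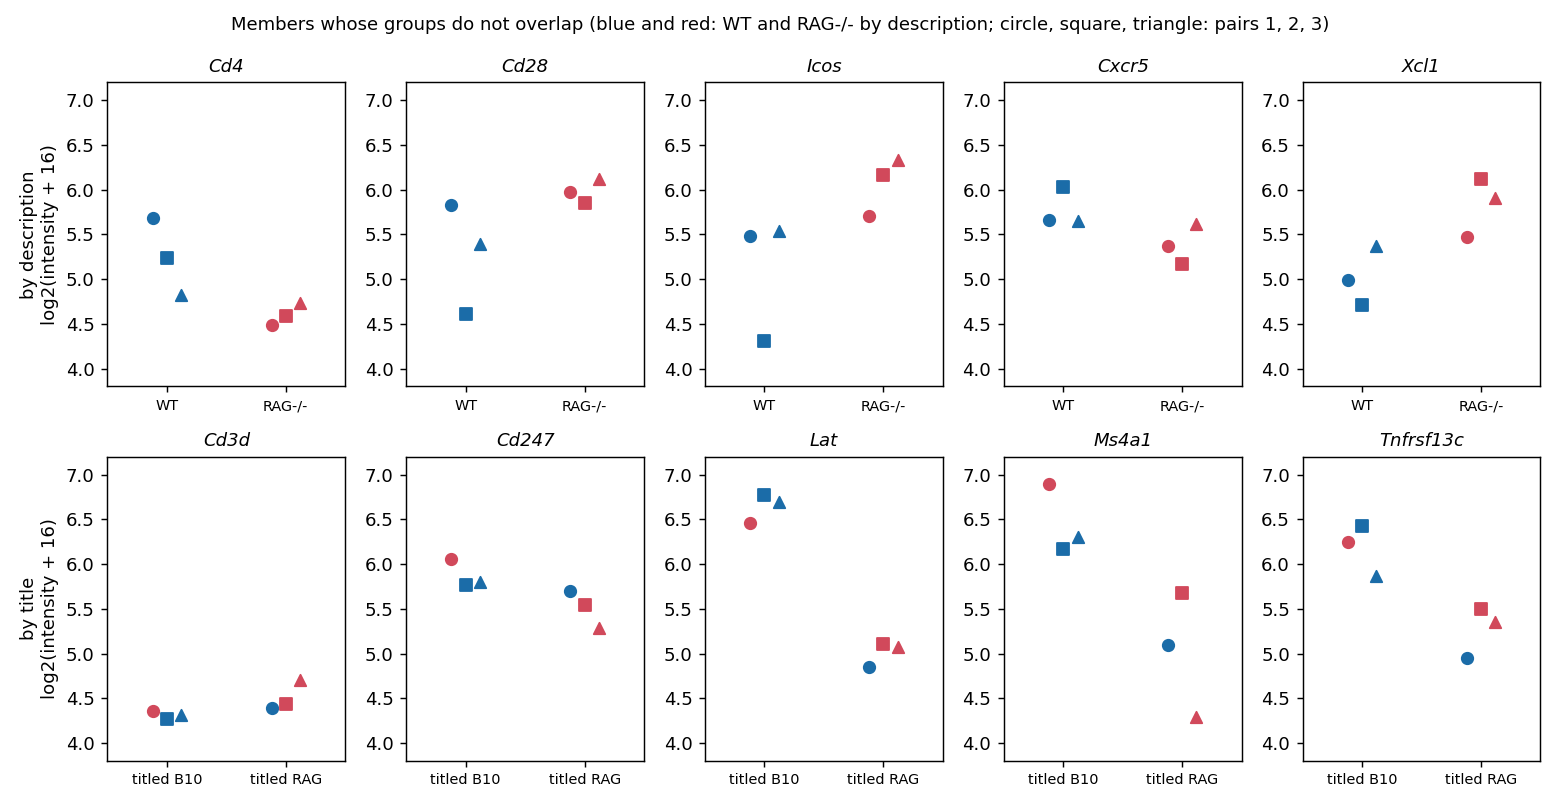
Quantile normalized log2(intensity + 16) in each array for the members without overlap by description (upper row) and by title (lower row), coloured by description and shaped by pair. In the lower row the red and blue circles of pair 1 sit in the opposite group, and Lat, Ms4a1 and Tnfrsf13c are lower in the 3 arrays titled RAG.

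Probe sets of one gene often disagreed. Of the 14 members with several probe sets, 7 had probe sets of both signs by description and 9 by title, among them Cd247, Cd8a, Zap70, Icos, Fcrla and Prf1 under both. In 39 of 69 member probe sets the brightest array was at least 5-fold above the dimmest.

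Further genes of the same cells gave no call either. Of 17 other T cell genes measured, 17 other B cell genes and 19 other NK and cytotoxic genes, 0 passed with limma under either reading, with or without the block. Their median differences were 0.42, 0.02 and 0.09 by description and 0.01, 0.09 and 0.21 by title. Without overlap by description, Themis and Xcr1 of these 3 lists were higher in RAG-/-, where 2.65% of all genes were. Ebf1 was lower, where 1.93% of all genes were. Il2ra and Rag1 were higher without overlap by title, where 2.76% of all genes were. Ptprc, the CD45 phosphatase on all leukocytes, was above TrpnX in all 6 arrays, at 821, 186 and 340 in wild type and 536, 154 and 226 in RAG-/-, lowest in pair 2. By description it was lower in RAG-/- in all 3 pairs, with differences of -0.56, -0.32 and -0.51. The share of all genes with the same sign in all 3 pairs is not given here. With the pair as a block the unadjusted p of Ptprc with limma was 0.0955 and its adjusted p 1. By title pair 1 changes sign, and the difference of Ptprc was -0.09 (SE 0.63). The sum over 11 macrophage and microglia genes was 15412, 3972 and 10118 in wild type and 12473, 5427 and 7801 in RAG-/-. That sum was lowest in the arrays of pair 2 and overlapped between the groups. Summed over the strongest probe sets of the 17 B cell members, intensity was 926, 857 and 1084 in wild type and 1129, 850 and 846 in RAG-/-.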

How the data were processed

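The deposited values are linear intensities, 1 for each probe set on each array, made by software not given in the sources used here. Judged by these values, the submitters had scaled each array to a mean of 500 without the lowest and highest 2% of probe sets, and dim values were neither floored nor removed, so ratios of dim probe sets rest on the background estimate. The members, the lists of genes and the naming rule (members above TrpnX in every array, members past the threshold or without overlap in either reading, and 17 defining markers), were chosen with earlier results of these data known.

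The 64 control probe sets were left out of the fits. Of the rest, 34945 had 1 symbol, 932 several and 9160 none. Values were taken as log2(intensity + 16) and quantile normalized, since the 75th percentiles differed by 0.232, and no dim filter was applied. Differences were tested with limma 3.58.1 in R 4.3.3 (lmFit, eBayes with an intensity trend), two-sided, with Benjamini-Hochberg adjustment over 45037 probe sets. The fit was tested on simulated data. The strongest probe set, by mean log2 value, stood for a gene. No label says that the samples came from separate animals. A p-value therefore reflects only how far these samples scatter, which may be technical. The title codes pair the samples: within pairs the deviations of both arrays from their group means had correlations of 0.19, 0.27 and 0.41, and across pairs none was above -0.0081. As deviations from a group mean cancel within the group, positive values within pairs bring negative ones across pairs. The values across pairs are therefore no separate support for the pairing. The number of arrays limits the precision. Alternatives covered the detection level, normalization, pseudocount, dim filter, block, left-out arrays and probe set rule.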

Additional observations from a re-analysis of the deposited data

How the results depend on the processing

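With limma, 0 members passed under each of the 15 alternatives by description and by title, the replicate block included. The block changed no call. The count of members above TrpnX in every array (15) moved to 38 with the median and 55 with the lowest of the TrpnX signals, 9 with 1.5 times the highest, and 5 with a common level chosen after seeing the data. Leaving out single arrays gave 15 to 30. The 5 genes without overlap by description were 2 as deposited, 0 without the lowest 40% of probe sets, 15 with pair 1 left out and 6 to 12 without single arrays, where fewer arrays have to part. By title the 5 were 0, 15 and 6 to 12 under the last 3. The shares of all genes without overlap in these settings are not given here, so a larger count is not read as a gain. The B cell median by description (-0.02) ran from -0.265 to 0.0795 without single arrays, the first without RAG-/- replicate 1. The NK median by description (-0.17) ran from -0.41 to -0.016 without single arrays, and by title (0.20) from -0.033 without WT replicate 2 to 0.385 without WT replicate 3. With a pseudocount of 1 the medians by title were -0.26 for T cell and -0.41 for B cell genes, and without single arrays -0.19 to -0.0299 and -0.33 to -0.08, with the T cell value of -0.19 without WT replicate 2. The cause was not tested.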
